A study of Gallus gallus with 8 samples.

Results

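The genes for 3 anterior pituitary hormones, GH, CGA and PRL, were followed in hypothalamic RNA of chickens. GH encodes growth hormone, the product of the somatotrophs. CGA encodes the alpha subunit that thyrotropin, luteinizing hormone and follicle-stimulating hormone share, and PRL encodes prolactin, the product of the lactotrophs. All spots that the platform annotation names GH, CGA or PRL were taken, and the annotation was joined to the arrays by the spot names in the array files. This gave 4 spots of 19200 on the array, for 3 of 6428 named genes. GH had 2 spots of different clones, a bright one and a dim one, and CGA and PRL had 1 spot each.

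The anterior pituitary lies directly below the hypothalamus and is joined to it by the pituitary stalk. Its hormone cells are controlled by peptides and dopamine that hypothalamic neurons release into the portal vessels, and somatotrophs and lactotrophs need the transcription factor POU1F1. The hormone transcripts are among the most abundant in the gland, so a fragment of gland dissected with the brain can carry them into a hypothalamic sample. Growth hormone and prolactin transcripts are also known from brain tissue of birds. In such bulk RNA, more cells of a type and more RNA per cell cannot be told apart.

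The study compared a fat line (FL) with a lean line (LL) at weeks 1, 3, 5 and 7, with 4 biological replicates in each of the 8 groups and 1 array for each replicate. The labels describe standard broiler rearing for all birds, and hypothalami that were cut out and frozen. They give neither the sex of the birds nor whether a replicate was 1 bird. Each sample was labelled with Cy3 and hybridised with a Cy5-labelled pool of equal parts of all the samples. Apart from effects of the dyes, which were not swapped, a positive log2 ratio stands for a transcript more abundant in that sample than in the mixture.

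The median Cy3 signal of an array was 2.57 to 8.45 times its local background over the 32 arrays, and in FL at week 1 it was 3.23 to 4.80 times against 4.34 to 8.45 times in LL at week 1. After the filter on dim clones, 7569 clones were tested. Of the 10 neuronal marker genes listed for the check of the tissue, 5 were on the array and all 5 passed the filter. Among the hypothalamic factors, TAC1, the tachykinin precursor, was above background on all 32 arrays, while NPY was above it on 4 of the 9 arrays that gave a value and PENK on 2 of 18.

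The bright GH spot gave a value on all 32 arrays and was above background on each. Its Cy3 signal was 28.5 times the local background at the median, with a range of 1.74 to 96.4 times. The local background beside this spot was above 4000 units per pixel on 12 arrays and reached 27301. At the median, 61.5% of its pixels were below the scanner's ceiling, and 31 arrays had some saturated pixels. The dim GH spot gave a value on 30 arrays and was above background on 0 of them. Its Cy3 signal was 2.31 times the local background at the median, so its ratios describe light near the background, and it did not enter the test over all clones.

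The CGA spot was saturated over most of its area on nearly every array. It gave a value on 31 arrays, with none for FL week 5 replicate 1, and on 29 of them more pixels were at the ceiling than below it. The median share of unsaturated pixels was 8.28%, with a range of 5.94% to 87.7%, and both arrays with a larger unsaturated share than the saturated one were of FL at week 1 (replicate 2 at 87.7% and replicate 3 at 83.5%). The deposited intensities are sums over the unsaturated pixels, so the CGA ratios come from the dimmer part of the spot. They are given here as log2 ratios of that part, without folds. The PRL spot had a value on all 32 arrays, had some saturated pixels on 13, and on each array more of its pixels were below the ceiling than at it.

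For 0 of the 3 genes did all arrays of a group lie above all arrays of the other groups, and on 0 arrays were all 3 ratios above 0. The log2 ratio of the bright GH spot was below 0 on 27 of 32 arrays, with a median of -0.24. That of CGA was below 0 on 28 of 31 arrays, with a median of -0.32, and that of PRL on 22 of 32, with a median of -0.04. As the pool held equal parts of all the samples, ratios below 0 on most arrays do not stand for low abundance in the samples. The sample was in Cy3 on every array, so an effect of the dyes shared by the arrays cannot be told apart in these medians. Over the 7569 clones tested, 4.68% had a lower median than GH, 1.33% a lower one than CGA and 37.9% a lower one than PRL, and 49.3% had a median below 0. The within-group SD was 0.32 for GH, 0.31 for CGA and 0.18 for PRL, beside a median of 0.20 over the clones tested.

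**Figure D1:**
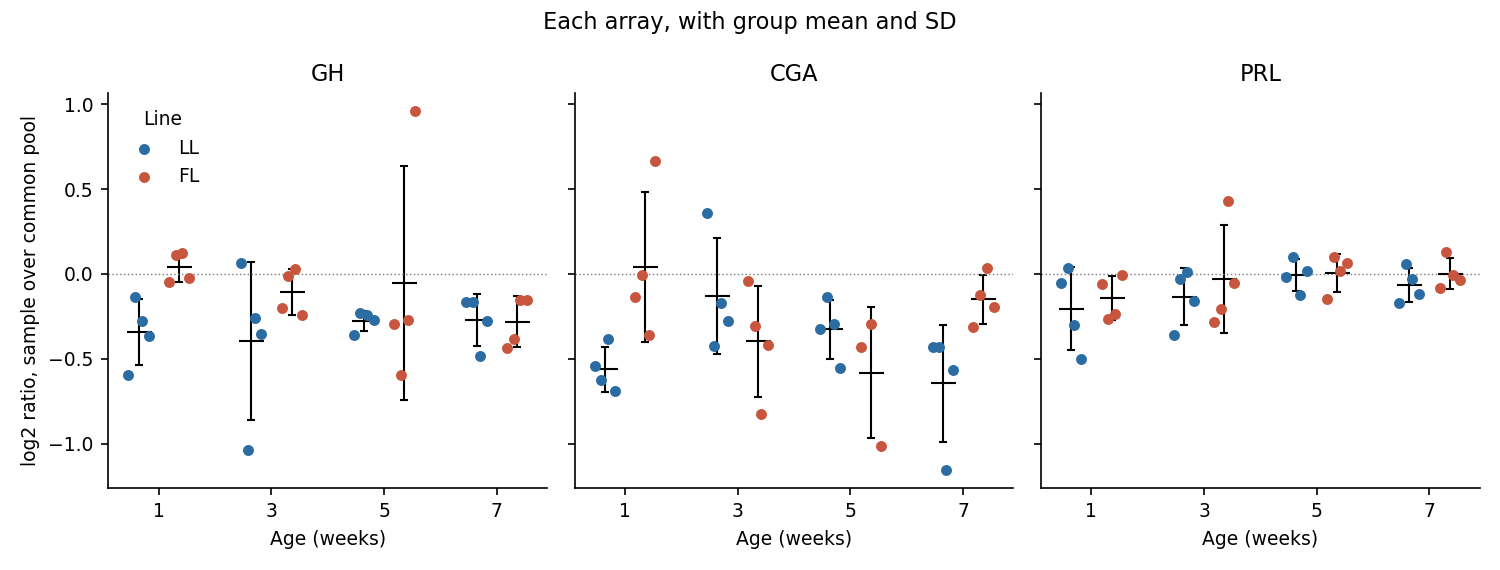
Log2 ratio of sample over pool for the bright GH spot, CGA and PRL on each array, by age in weeks and line (blue LL, red FL), with group means and SD (n = 4, CGA in FL at week 5 n = 3). The highest points lie in a different group for each gene: FL week 5 for GH (0.96), FL week 1 for CGA (0.66) and FL week 3 for PRL (0.43).

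In LL at week 1 the 4 GH ratios were -0.60, -0.13, -0.28 and -0.37, and in FL at week 1 they were -0.05, 0.11, 0.12 and -0.02. Every FL value lay above every LL value. At week 3 the LL ratios were 0.07, -1.04, -0.26 and -0.35 and the FL ratios -0.20, -0.01, 0.03 and -0.24, and the groups overlapped. At week 5 the LL ratios were -0.36, -0.23, -0.24 and -0.27, the closest together of any group for GH. The FL ratios at week 5 were -0.29, -0.60, -0.27 and 0.96, with 3 arrays within or below the LL range and 1 far above it. At week 7 the LL ratios were -0.16, -0.16, -0.49 and -0.28 and the FL ratios -0.43, -0.38, -0.15 and -0.15, which overlapped almost wholly.

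The GH line difference, FL minus LL, was 0.22 ± 0.11 (SE) on the log2 scale over the 4 ages, and it did not pass the limma test (adjusted p = 0.841, 16 arrays of each line). Of all clones tested, 0.0132% were called in that comparison. The week 1 difference was 0.39 ± 0.21 (limma adjusted p = 0.352). It was 0.29 ± 0.21 at week 3 and 0.22 ± 0.21 at week 5, and at week 7 it was -0.01 ± 0.21. None passed the threshold of 0.05. Permuting the line labels within weeks gave p = 0.0404 over the ages, and the exact test gave p = 0.0286 at week 1, the smallest that 4 arrays against 4 allow. After adjustment over the 20 permutation tests of the 4 spots these were 0.202 and 0.190.

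Single arrays set much of the GH difference. Without FL week 5 replicate 4 it fell to 0.14 over the ages, with an unadjusted permutation p of 0.0950, and at week 5 it became -0.11. Without FL week 5 replicate 2 the difference over the ages rose to 0.27, with an unadjusted permutation p of 0.00849. These were the lowest and the highest difference over the ages with 1 array left out. Without LL week 3 replicate 2, the array with the lowest GH ratio, the week 3 difference was 0.08, and without LL week 3 replicate 1 it was 0.44. Beside the GH spot of LL week 3 replicate 2 the local background was 22591 units per pixel. The Cy3 signal was 1.95 times that background, and the ratio was -0.43 without background subtraction. In the Cy3 channel alone the difference over the ages was 0.03 ± 0.12. The week 1 difference was 0.18 in the Cy3 channel alone, 0.25 without background subtraction and 0.68 with median centring in place of loess. Every FL array with a value stayed above every LL array at week 1 in 8 of 9 other ways of making the ratios. The groups overlapped without background subtraction. The 8 include the authors' ratios, which had GH values on 3 FL and 3 LL arrays at week 1. These lacked replicate 1 of both lines. At week 1 the background beside this spot was 27301 units per pixel on LL replicate 1. It was 19839 on FL replicate 1 and 16131 on FL replicate 2. The Cy3 signal on these arrays was 1.74, 2.20 and 2.65 times the background.

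CGA, the shared alpha subunit, had ratios of -0.54, -0.63, -0.38 and -0.69 in LL at week 1. In FL at week 1 they were -0.14, -0.01, -0.36 and 0.66. The FL values again lay above all the LL values. The unsaturated share of the spot was 9.06%, 87.7%, 83.5% and 21.8% on these FL arrays, and from 6.99% to 10.4% on the LL arrays. The ratios of the 2 lines at week 1 therefore come from unlike parts of the spot. At week 3 the LL ratios were 0.36, -0.42, -0.17 and -0.27 and the FL ratios -0.04, -0.30, -0.82 and -0.42. At week 5 the LL ratios were -0.32, -0.13, -0.30 and -0.55 and the 3 FL ratios -0.43, -0.29 and -1.02. At both of these ages the groups overlapped and the mean was lower in FL. At week 7 the LL ratios were -0.43, -0.43, -1.15 and -0.56 and the FL ratios -0.31, -0.12, 0.03 and -0.19, with every FL value above every LL value.

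The line difference of CGA at week 1 was 0.60 ± 0.20 (limma adjusted p = 0.155). The week 3 and week 5 differences were -0.27 ± 0.20 and -0.25 ± 0.22, and the week 7 difference was 0.50 ± 0.20 (limma adjusted p = 1.00). Over the ages it was 0.14 ± 0.10 (limma adjusted p = 0.841). The moderated F test of limma, fitted across all clones, asked whether the line difference changed with age. Its adjusted p for CGA was 0.532, from 0.00681 before adjustment. The exact permutation test gave p = 0.0286 at week 1 and at week 7, the smallest possible, and 0.190 for both after adjustment. Without FL week 1 replicate 4 the week 1 difference was 0.39, and without LL week 7 replicate 3 the week 7 difference was 0.33. With the array's signal over background as a covariate the week 1 difference was 0.44 ± 0.20 (limma adjusted p = 0.507). It was 0.92 with median centring and 0.93 with signals per whole spot area, the latter chosen after the data were seen, and the week 7 difference was 0.21 in the Cy3 channel alone. The lines were apart at week 1 in 7 of 7 other ways of making the ratios that kept CGA on all 4 arrays of both lines. The authors' ratios, not counted here, had CGA values on 4 FL arrays and 1 LL array at week 1. They had 2 of each at week 7, and the lines were apart at both ages. At week 7 they were apart in 5 of 7 and overlapped with median centring and with signals per whole spot area.

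PRL showed the least spread. Its ratios in LL were -0.05, 0.04, -0.30 and -0.50 at week 1, and -0.36, -0.03, 0.01 and -0.16 at week 3. They were -0.02, 0.10, -0.13 and 0.02 at week 5 and -0.17, 0.06, -0.03 and -0.12 at week 7. In FL they were -0.06, -0.27, -0.24 and -0.01 at week 1, and -0.28, -0.21, 0.43 and -0.06 at week 3. At week 5 they were -0.15, 0.10, 0.01 and 0.06, and at week 7 -0.08, 0.13, -0.01 and -0.04. The lines overlapped at every age, and 1 FL value at week 3 stood above the rest. The PRL line difference was 0.06 ± 0.06 over the ages (limma adjusted p = 0.852), and by age it lay between 0.01 ± 0.12 at week 5 and 0.10 ± 0.12 at week 3. Without FL week 3 replicate 3 the week 3 difference was -0.05. The week 1 difference, 0.06 with loess, was 0.40 with median centring (limma adjusted p = 0.165) and -0.12 in the Cy3 channel alone.

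Taking the 3 genes at the 4 ages, every FL array was above every LL array in 3 of 12 comparisons, GH and CGA at week 1 and CGA at week 7. Over all clones tested, 4.9% had all FL arrays above all LL arrays at week 1 and 1.2% at week 7, with 1.02% and 3.44% at the ages between them. Limma called 0.185% of all clones at week 1, and 0 at weeks 3, 5 and 7 and in the test of change between weeks. All 14 clones called at week 1 were lower in FL, and 0 were called higher in FL, the direction of the GH and CGA differences. The 14 calls became 139 when FL week 7 replicate 3 was left out. They became 2 when LL week 1 replicate 1 was. The count moved by more than 1.5 times in 7 of the 32 fits that left out 1 array. In the test of change between weeks 30 clones were called without FL week 7 replicate 3. Over the 3 genes and 12 contrasts, limma called 0 of 36, with 4 of 36 at an unadjusted p under 0.05, beside 8.17% of all clone tests over the 12 contrasts and 17.3% of those at week 1. These 4 were all among the 18 tests of the lines, in which 6.37% of all clone tests were under 0.05. Of the 20 permutation tests, 4 were under 0.05 before adjustment. A test at 1 week, as 16 of the 20 were, could pass the adjustment only if at least 12 of the 20 reached 0.0286. With arrays simulated at the spread of these clones, the limma test over the ages called 91.0% of 100 clones changed by 0.5 on the log2 scale, and the week 1 test called 52.0% of 100, among 7569 clones. The simulated errors were normal and independent, and 100 further clones were changed by 1. The within-group SD was 0.32 for GH and 0.31 for CGA, above the median of 0.20 over the clones tested. These shares therefore do not give the power for the hormone genes.

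**Figure D2:**
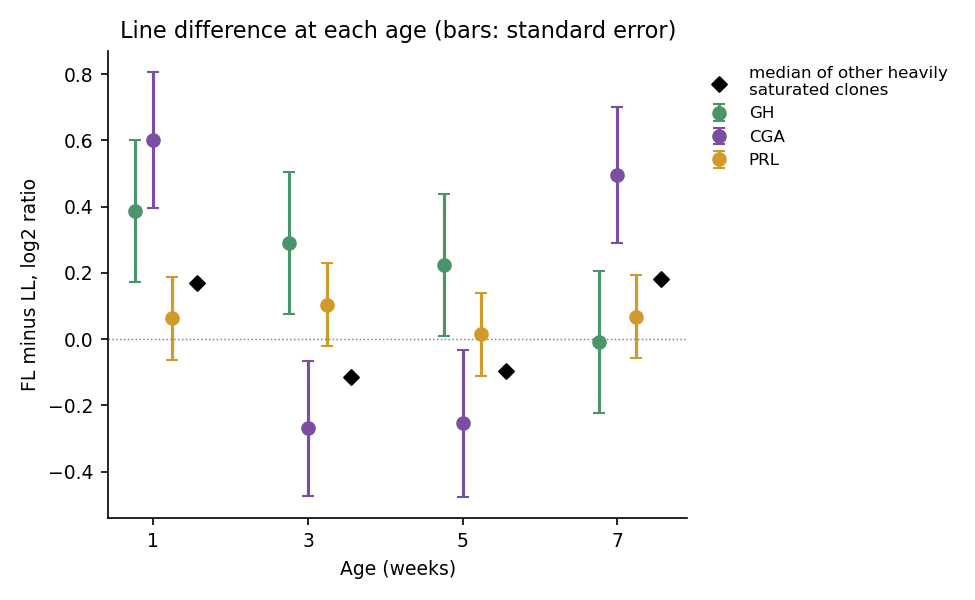
Line difference (FL minus LL, log2 ratio) at each age for GH, CGA and PRL, with the limma standard error as bars. Diamonds give the same difference for the median ratio of 338 other clones with under 20% of their pixels unsaturated at the median, which is above 0 at weeks 1 and 7 and below 0 at weeks 3 and 5, as for CGA.

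The sign of the CGA difference at each age was that of other saturated spots. Besides CGA, 338 tested clones with a single spot had under 20% of unsaturated pixels at the median. The median of their shares was 8.93%, beside 8.28% for CGA, whose share reached 87.7% in FL at week 1. The median ratio of these clones was taken on each array. Its line difference was 0.17 at week 1 and 0.18 at week 7, and -0.11 and -0.10 at weeks 3 and 5. The mean difference was above 0 in 247 of the 338 clones at week 1 and in 260 at week 7, against 114 at week 3 and 95 at week 5. CGA's differences of 0.60 at week 1 and 0.50 at week 7 compare with a 95th percentile of 0.54 over these clones at both ages, and 5.62% of them had all FL arrays above all LL arrays at week 1 and 2.66% at week 7.

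Within groups, too, CGA moved with these clones from array to array. The deviations of CGA from its group mean and those of the saturated clones correlated with r = 0.69 and rho = 0.67 over 31 arrays (permutation p = 0.00047 for r and 0.0005 for rho, adjusted p for r = 0.0052 over 11 relations). Without the 2 arrays where CGA was farthest from its median, r was 0.64 (permutation p = 0.00684). For GH r with the saturated clones was 0.25 and rho 0.32 over 32 arrays (permutation p = 0.153 and 0.106, adjusted p for r = 0.420), and for PRL r was -0.41 and rho -0.33 (permutation p = 0.0293 and 0.0882, adjusted p for r = 0.161). CGA also had r = -0.41 and rho = -0.43 with the signal over background of the array (permutation p = 0.0480 and 0.0393, adjusted p for r = 0.176). The part of saturation in the CGA line differences was not tested. All these arrays share the pool and the normalization.

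**Figure D3:**
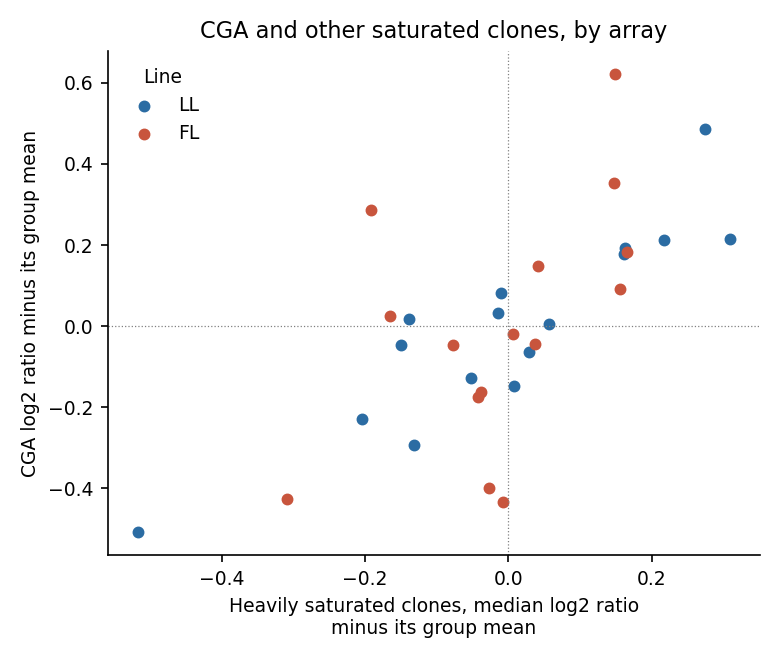
Deviation of the CGA log2 ratio from its group mean against the deviation of the median log2 ratio of 338 other heavily saturated clones, 1 point for each of 31 arrays (blue LL, red FL). The points rise together (r = 0.69), with LL week 7 replicate 3 at the lower left.

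Within groups, no pair of the 3 hormone genes had a correlation that passed the threshold of 0.05. The deviations of GH and CGA had r = -0.05 and rho = 0.01 over 31 arrays (permutation p = 0.875 and 0.968), those of GH and PRL r = -0.05 and rho = -0.02 over 32 arrays (permutation p = 0.777 and 0.940), and those of CGA and PRL r = -0.26 and rho = -0.19 over 31 arrays (permutation p = 0.199 and 0.329). Adjusted p for r over the 11 relations was 0.875, 0.855 and 0.438. Without the 2 arrays farthest from the median of the first gene, r was 0.10, -0.07 and -0.39. With the authors' ratios r was 0.36 over 13 arrays, 0.04 over 29 and 0.10 over 14, in the same order. The bright and the dim GH spot had r = 0.09 and rho = 0.04 over 30 arrays (permutation p = 0.374 and 0.808, adjusted p for r = 0.588), with r = 0.09 without the 2 farthest arrays. GH had r = 0.16 and rho = 0.14 with the signal of the array (permutation p = 0.668 and 0.557, adjusted p for r = 0.816), and r = -0.25 and rho = -0.26 with the local background beside its own spot (permutation p = 0.274 and 0.186, adjusted p for r = 0.502). PRL had r = 0.12 and rho = 0.08 with the signal of the array (permutation p = 0.520 and 0.679, adjusted p for r = 0.715).

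The array with the highest GH ratio was FL week 5 replicate 4, at 0.96, 1.24 above its group's median. It was the only array on which a tested hormone spot lay more than 1 from its group median. On that array CGA was at -1.02, the lowest of its group, PRL at 0.06, and the dim GH spot at -0.11. The high GH ratio came with a dim pool channel. Relative to the rest of its array and to its own median over the arrays, the Cy5 signal of the spot was lower by 1.32 on the log2 scale, the lowest of 32 arrays, while its Cy3 signal, that of the sample, was also low, at -0.37 and 28th from the highest. The spot covered 85 pixels there, against a median of 160 over the arrays, and its local background was 6094 units per pixel. The ratio on this array was 0.74 without background subtraction and 0.64 in the authors' deposited table of log2 ratios.

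The array with the highest PRL ratio, FL week 3 replicate 3 at 0.43, had the same feature. The Cy5 signal of the PRL spot was the lowest of 32 arrays, at -0.90 from its own median, and the Cy3 signal was -0.21 from its median, 26th from the highest. GH was at 0.03 there, the highest of its group, and CGA at -0.82, the lowest of its group. The highest CGA ratio, on FL week 1 replicate 4 at 0.66, came instead with a bright sample channel, at 1.32 from its median and 2nd from the highest, and a pool channel close to its median, at -0.05. On that array 21.8% of the CGA pixels were unsaturated, beside 8.28% at the median, GH was at -0.02 and PRL at -0.01. The brightness of CGA is that of its unsaturated pixels only. Its Cy3 signal was at 1.48 on FL week 3 replicate 2 (26.3% unsaturated) and 1.31 on FL week 1 replicate 2 (87.7%). It was at 1.05 on LL week 3 replicate 1 (6.86%) and -0.02 on FL week 7 replicate 2 (27.6%). The part of the unsaturated share in this brightness was not tested.

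**Figure D4:**
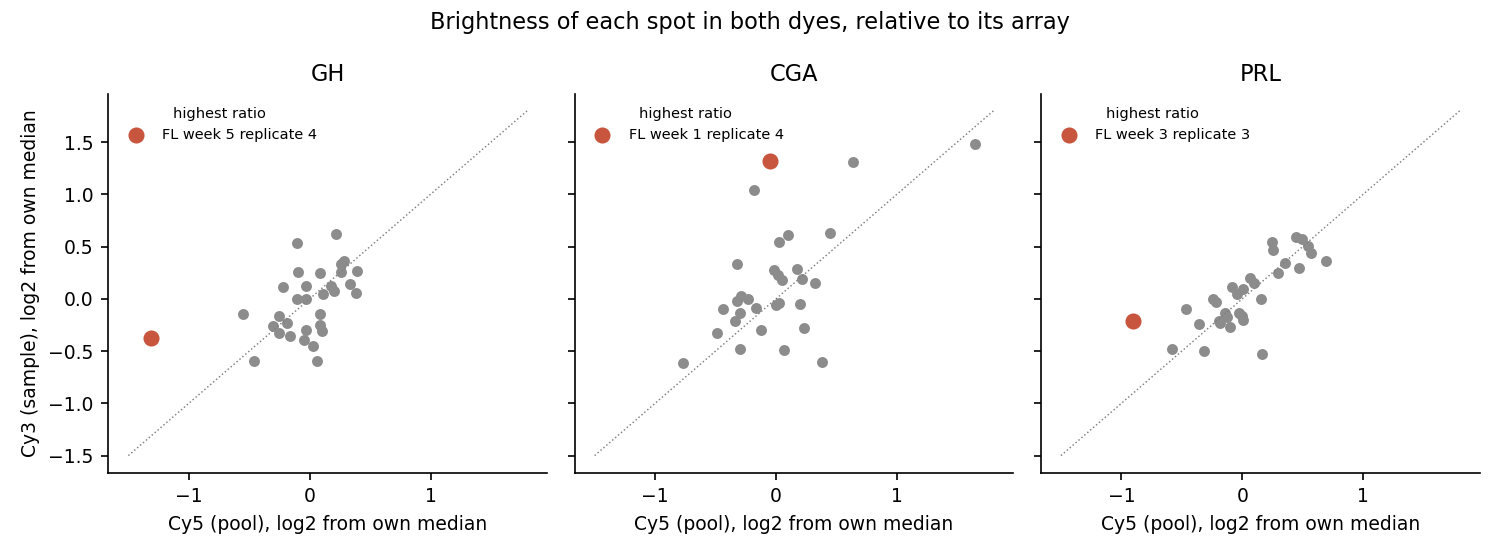
Cy3 (sample) against Cy5 (pool) brightness of the bright GH spot, CGA and PRL on each array, each relative to the tested clones of its array and to the spot's own median (log2). For a partly saturated spot this is the brightness of its unsaturated pixels. The red point is the array with the highest ratio: for GH and PRL it has the lowest Cy5 value (-1.32 and -0.90), and for CGA it has a high Cy3 value (1.32), and the dotted line marks equal change in both dyes.

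Other genes of the anterior pituitary were read on the same arrays. Of 23 such genes listed, 10 were on the array and 7 passed the filter on dim clones. These were FSHB, the follicle-stimulating hormone beta subunit, POMC, the precursor of corticotropin, the transcription factors POU1F1, TBX19 and GATA2, GHRHR, the receptor for growth hormone-releasing hormone, and the somatostatin receptor SSTR2. POMC and SSTR2 are also known from hypothalamic neurons. TSHB, the thyrotropin beta subunit, was not well above background on any of the 16 arrays that gave a value, and NR5A1 and DLK1 were above it on 1 of 32 each.

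On the array with the highest GH ratio, 1 of the 7 genes was above the mean of the other arrays of its group, beside 46.9% of all clones. The differences ran from -0.35 for FSHB to 0.07 for POU1F1, with POMC at -0.07 and GHRHR at -0.17. On the array with the highest CGA ratio, 3 of 7 were above the others, beside 47.0% of all clones, with SSTR2 at 0.53, POMC at 0.10, FSHB at 0.01 and TBX19 at -1.96. On the array with the highest PRL ratio, 6 of 7 were above the others, beside 46.2% of all clones. There TBX19 was higher by 1.34, GATA2 by 0.44, POMC by 0.28, GHRHR by 0.17, POU1F1 by 0.14 and FSHB by 0.11, and SSTR2 was at -0.29. On the same array 1 of 5 neuronal genes was above the others, with a median of -0.29, and 0 of 2 oligodendrocyte genes, with a median of -0.41, and the astrocyte gene with a value was at -1.15. On the array with the highest CGA ratio 1 of 5 neuronal, 0 of 2 astrocyte and 0 of 3 connective tissue genes were above the others, and on that with the highest GH ratio 2 of 5, 2 of 2 and 3 of 3. The part of other cells in these ratios was not tested. The middle 95% of all clones ran from -0.61 to 0.94 on the array with the highest PRL ratio. TBX19 was outside it, and PRL itself, higher by 0.61, was inside it. On the array with the highest CGA ratio the middle 95% ran from -0.84 to 0.53. There TBX19 was below it, and CGA, higher by 0.83, and narrowly SSTR2 were above it. These arrays were chosen for the highest ratio of a hormone gene, so that gene's own high place follows from the choice. On LL week 5 replicate 2 all 3 hormone genes were the highest of their group, which held on 1 array of 32. They were above the mean of the other 3 arrays by 0.06 for GH, 0.26 for CGA and 0.14 for PRL, and 2 of the 7 other pituitary genes were above it, beside 49.3% of all clones. The part of gland tissue in these ratios was not tested.

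**Figure D5:**
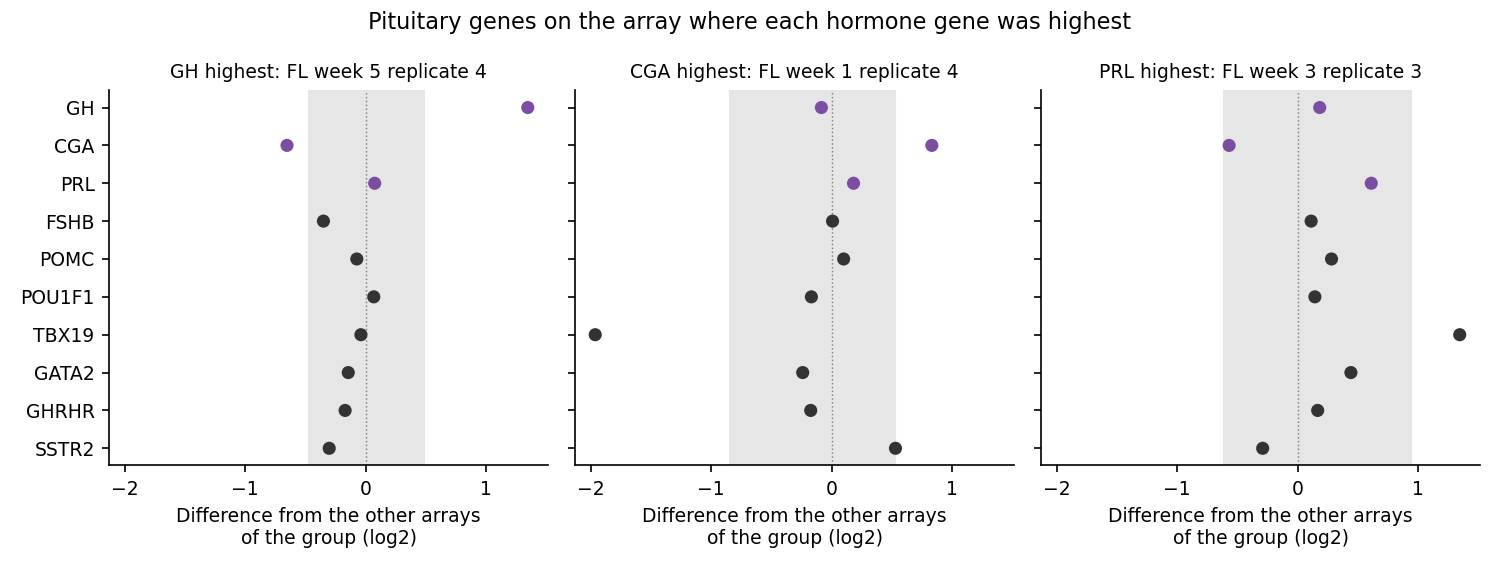
Difference of each pituitary gene from the mean of the other arrays of the same group (log2), on the array where GH, CGA or PRL was highest (hormone genes purple, other genes black). Grey bands hold the middle 95% of all clones tested. On their own arrays GH lies at 1.34 and CGA at 0.83, outside the band, and PRL at 0.61, inside it. Each array was chosen for the highest ratio of that gene, so the gene's own high place follows from the choice.

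The mean log2 ratio of the 7 other pituitary genes on an array ranged from -0.10 to 0.01 in LL and from -0.04 to 0.69 in FL at week 1, from -0.13 to 0.10 and -0.08 to 0.30 at week 3, from -0.05 to 0.15 and 0.08 to 0.35 at week 5, and from 0.04 to 0.23 and -0.07 to 0.16 at week 7. TBX19 weighed heavily in these means, and not in FL at week 1 alone. In that group it was at 0.04 on replicate 4, lower by 1.96 than the mean of the other arrays. On FL week 5 replicate 4 it was at 1.44, lower by 0.04 than the mean of the others of its group. It was at 1.65 on LL week 7 replicate 3 and 1.84 on FL week 3 replicate 3, but at 0.53 on LL week 1 replicate 4. A range of these means can therefore rest largely on TBX19. FSHB had a value on 22 arrays, and the means of the other arrays lack it. None of the 7 passed the limma test for a line difference or between ages (0 of 84 tests, with 8 of 84 at an unadjusted p under 0.05, beside 8.17% of all clone tests over the 12 contrasts). The difference over the ages was positive in 6 of 7, beside 4070 of the 7569 clones tested. Its median was 0.08, beside a median of 0.01 over all clones. At week 1 it was 0.25 ± 0.11 for GHRHR (limma adjusted p = 0.229), 0.23 ± 0.11 for POMC (limma adjusted p = 0.273), 1.11 ± 0.62 for TBX19, 0.16 ± 0.14 for SSTR2, 0.08 ± 0.13 for GATA2, 0.06 ± 0.19 for FSHB and -0.19 ± 0.18 for POU1F1.

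None of the hormone genes passed a test between ages. From week 1 to week 7, averaged over the lines, GH changed by -0.13 ± 0.15 (limma adjusted p = 0.691), CGA by -0.14 ± 0.14 (0.647) and PRL by 0.14 ± 0.09 (0.387), in a comparison in which 3.37% of all clones were called. Within LL the values were 0.07 ± 0.21, -0.08 ± 0.20 and 0.14 ± 0.12, and within FL they were -0.32 ± 0.21, -0.19 ± 0.20 and 0.14 ± 0.12, with 0.0793% of all clones called in LL and 1.04% in FL. With 1 array left out, the 255 clones called over both lines became 78 (without FL week 1 replicate 2) to 554 (without FL week 1 replicate 1), and the 79 called in FL became 22 (without FL week 7 replicate 1) to 394 (without FL week 7 replicate 3). Between weeks 1 and 3, where 0.251% of all clones were called, between weeks 3 and 5 (0.0264%) and between weeks 5 and 7 (0), the size of each hormone gene's difference was at most 0.19.

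Of the 21 hypothalamic factors listed, 5 were on the array and 3 were tested. TAC1 rose from week 1 to week 7 by 0.32 ± 0.06 (limma adjusted p = 0.00255), and its line difference over the ages was 0.01 ± 0.04. ADCYAP1, which encodes the peptide PACAP, had -0.03 ± 0.13 from week 1 to week 7 and a line difference of 0.01 ± 0.09. NMU, the neuromedin U gene, had -0.29 ± 0.10 (limma adjusted p = 0.102) and a line difference of 0.12 ± 0.07. Of 21 receptors and downstream genes of the hormones, 5 were tested and limma called 0 of 60 tests, with 3 of 60 at an unadjusted p under 0.05, beside 8.17% of all clone tests.

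Among the markers of other cells, 7 of 9 secretory granule genes, 5 of 10 neuronal, 2 of 6 astrocyte, 2 of 6 oligodendrocyte, 2 of 8 choroid plexus, 3 of 7 connective tissue and 2 of 11 red blood cell genes were tested, and limma called 0 of their 138 tests of the lines, with 14 of 138 at an unadjusted p under 0.05, beside 6.37% of all clone tests of the lines. At week 1, where GH and CGA separated the lines, the mean ratio of the 5 neuronal genes on an array ran from -0.61 to -0.25 in FL and from -0.06 to 0.10 in LL, without overlap. That of the 3 connective tissue genes ran from -0.44 to 0.04 in FL and from 0.09 to 0.36 in LL, also apart. The 2 astrocyte genes ran from -0.59 to -0.02 in FL and from -0.11 to 0.58 in LL, and overlapped. Those of secretory granules ran from -0.11 to 0.30 in FL and from 0.16 to 0.35 in LL. They overlapped, as did the oligodendrocyte, choroid plexus and red blood cell means. At week 1, 1 of the 5 neuronal and 1 of the 3 connective tissue genes were higher in FL, beside 4447 of the 7569 clones tested. The share of all clones with every FL array below every LL array was not counted, so these separations have no reference beside them. At week 1, 17.3% of all clones had an unadjusted limma p under 0.05, and all 14 clones called were lower in FL. The part of these markers in the GH and CGA differences was not tested. CPE, a processing enzyme of secretory granules, rose from week 1 to week 7 by 0.45 ± 0.12 (limma adjusted p = 0.0331). HBBA, a globin gene, fell by 1.36 ± 0.15 on the log2 scale over the same ages.

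The named genes whose ratios over the arrays were most like those of the hormone genes differed between them. For GH they were GCOG8 (r = 0.59, rho = 0.33 over 30 arrays), CDH23 (r = 0.53, rho = 0.58, 30 arrays) and SLC10A7 (r = 0.52, rho = 0.47, 32 arrays), against a 95th percentile of 0.28 over the 4266 named clones compared. For CGA they were COMMD10 (r = 0.81, rho = 0.72, 30 arrays), TOX3 (r = 0.79, rho = 0.77, 30 arrays) and ERLIN2 (r = 0.78, rho = 0.61, 31 arrays), against a 95th percentile of 0.59 over 4198. For PRL they were ING3 (r = 0.81, rho = 0.79, 32 arrays), SSR1 (r = 0.78, rho = 0.77, 30 arrays) and TNKS1BP1 (r = 0.78, rho = 0.72, 32 arrays), against a 95th percentile of 0.44 over 4266. The values of r are the highest of all those compared and are given as a description.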

How the data were processed

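Per the file headers, each deposited array file holds Cy3 and Cy5 raw and local background intensity summed over a spot, the spot area, the fraction of unsaturated pixels, quality letters and the authors' log2 ratio of normalized intensities. The sources used here do not name the scanner or the authors' normalization. Background values were whole numbers per unsaturated pixel in 100% of 23376 values with under 90% of their pixels unsaturated (tolerance 0.02), and per pixel of the whole area in 4.62%. Sums were therefore divided by the unsaturated area, in place of the whole spot area that had been planned. Spots with letters that the headers call unsatisfactory were left out. The headers do not explain the letter S, and spots that carried it were kept. Among the GH, CGA and PRL spots only CGA carried it, on 4 arrays. One of these 4 gave the lowest CGA ratio (-1.15, in LL at week 7). Without that array the CGA line difference at week 7 was 0.33, in place of 0.50.

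Log2 ratios were computed with limma 3.58.1 in R 4.3.3: normexp with offset 50, then global loess (span 0.3, 4 iterations, empty spots at weight 0). Spots of 1 accession were averaged. Clones above the 95th percentile of the empty spots on 3 arrays of a group, with 2 values in every group, were tested with lmFit and eBayes over 8 group means, with Benjamini-Hochberg adjustment over all clones and a threshold of 0.05. Permutations were exact at 1 week and used 100000 resamples otherwise (numpy 2.4.6, scipy 1.17.1). All tests were two-sided. The limma step was also run on simulated data.

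Gene names came from the platform annotation, joined by the array files' own spot names. The authors' series table matched the array files by place (64503 of 64503 values within 0.005) but by spot name in 1775 of 30053, so its names were not used. The files give no genome build, so no coordinates are given. The brightest clone stood for a gene. Named beside the hormone genes are every tested gene of the pituitary and hypothalamic factor lists, genes of other lists past the threshold, and the 3 named genes with the highest r to each hormone gene over at least 28 arrays. The hormone genes and the lists were chosen with earlier results of these data known.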

Additional observations from a re-analysis of the deposited data

How the results depend on the processing

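None of the 1779 values of GH, CGA and PRL, over 19 other settings and the 32 fits that each left out 1 array, passed the threshold. The lowest limma adjusted p was 0.0995 (CGA at week 1, with 1 array left out). The 1779 include plain differences of group medians, which carry no p and could not pass. The calls over all clones at week 1 were 14, and between 0 (Cy3 alone, and array signal as covariate) and 31 (no background subtraction, and array weights) under the other settings that kept all arrays. Over the ages they were 1, and between 0 and 2 under those settings. Signs changed under some of these settings, and the cause was not tested. With Cy3 alone, the line difference was -0.339 for GH and 0.00253 for CGA at week 5, and for PRL it was -0.0716 over the ages, -0.12 at week 1, -0.00947 at week 3 and -0.198 at week 5. Also with Cy3 alone, GH was at 0.0113 from week 1 to 3, 0.187 from week 5 to 7, 0.199 from week 1 to 7 and 0.0466 from week 1 to 7 in FL, and PRL at -0.00452 from week 3 to 5 and 0.0759 from week 5 to 7. Without background subtraction the line difference was 0.0283 for GH at week 7 and -0.00421 for PRL at week 5, CGA was at 0.00904 from week 1 to 3 and GH at -0.012 from week 1 to 7 in LL. With the authors' deposited log2 ratios, GH was at -0.0293 for the lines at week 3, 0.0295 at week 7, -0.0372 from week 3 to 5 and -0.0847 from week 1 to 7 in LL, and the correlations were 0.36 for GH and CGA (13 arrays), 0.0432 for GH and PRL and 0.10 for CGA and PRL. Without the 2 farthest arrays the correlation of GH and CGA was 0.10. With signals per whole spot area, chosen after the data were seen, the line difference was 0.00151 for GH at week 7 and -0.0117 for PRL at week 5, and CGA was at 0.0144 from week 1 to 7 in LL. With spots under 50% unsaturated left out, also chosen then, which leaves no CGA value to test, it was 0.0481 for GH at week 7 and -0.00488 for PRL at week 5, and GH was at -0.00295 from week 1 to 7 in LL. Print-tip loess, chosen then too, gave 0.0321 for GH at week 7. Array weights gave -0.00843 for PRL at week 3. The array signal as covariate gave 0.0189 for CGA from week 1 to 3. Median centring gave 0.0364 for CGA from week 1 to 7 in LL and -0.103 for PRL from week 1 to 7 in FL. The mean of the GH clones gave 0.0152 from week 1 to 3 and 0.0305 from week 1 to 7.

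Leaving out each array in turn, the GH line difference ran from -0.112 to 0.406 at week 5 and from -0.0811 to 0.0414 at week 7, and PRL's from -0.0365 to 0.143 at week 1, from -0.0484 to 0.188 at week 3 and from -0.0252 to 0.0669 at week 5. From week 1 to 3 GH ran from -0.176 to 0.00786 and CGA from -0.0836 to 0.101. From week 3 to 5 GH ran from -0.082 to 0.177. From week 5 to 7 GH ran from -0.204 to 0.0552 and CGA from -0.0521 to 0.142. From week 1 to 7 in LL GH ran from -0.0124 to 0.143 and CGA from -0.155 to 0.0861, and in FL CGA ran from -0.323 to 0.018. The permutation p of GH over the ages ran from 0.00849 to 0.0950 and was at or above 0.05 in 15 of 32 such fits. The exact permutation p reached 0.0571 for GH and CGA at week 1 and 0.0857 for CGA at week 7. No tested hormone spot exceeded Dixon's bound, so no fit without such arrays was made. The replicate numbers are those of the array files. Arrays with the same number in different groups had a median correlation of deviations of 0.10 (range -0.44 to 0.62, 112 pairs), beside -0.03 for pairs with different numbers. Of the 32 arrays, 16 correlated best with their own number. In every group the signal over background was below the group mean on replicate 1 and above it on replicate 4. The main fit and the permutations do not model the replicate number, so an effect shared by arrays of 1 number stays in their spread. Each group holds each number once, so a replicate block cannot change the line differences of GH and PRL, or that of CGA at week 1. CGA lacks FL week 5 replicate 1, so this does not hold for its differences at week 5 and over the ages. With the block the limma adjusted p at week 1 was 0.339 for GH and 0.132 for CGA, and 29 clones were called at week 1 and 0 over the ages.

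Few arrays and saturation limit these values: 4 arrays in a group leave standard errors of 0.12 to 0.22 for a hormone gene at 1 week, and CGA was read from 8.28% of its pixels at the median.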
